A study of Mus musculus with 4 samples.

Results

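The cells described here were neutrophils from the inflamed mouse colon that carried few transcripts of 3 secondary granule genes, Ngp, Ltf and Camp. They were chosen by their measured unique molecular identifier (UMI) counts, each UMI standing for one captured RNA molecule. Among cells with at least 200 detected genes and under 20% mitochondrial UMIs, a cell was taken when S100a8 and S100a9 together made at least 1% of its UMIs, when it held at least 1 UMI of Csf3r, when Ngp, Ltf and Camp summed to under 5 UMIs, and when Cd3e, Cd3d, Cd3g, Cd79a, C1qa and Fcgr1 were all at 0. This gave 2993 low-granule neutrophils among 43432 cells passing the filters, of 45229 deposited cells. The levels of those 12 genes are therefore a description of the choice and not a result.

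Leukocytes of the colonic lamina propria were selected with CD45 magnetic beads from mice with colitis induced by dextran sulfate sodium (DSS) in the drinking water, and single-cell RNA libraries were made with the 10x Genomics system. There were 4 samples, numbered 1 to 4 as in the labels, all from DSS-treated mice given as 10 weeks old, and each was made from several mice whose cells were mixed. The study used mice lacking the aryl hydrocarbon receptor (AhR) and wild-type mice, but the labels do not say which sample had which genotype, so no comparison between genotypes was made and each sample is given by its own value. No p-value is given, since cells of 1 sample are not replicates and an exact sign-flip test over 4 samples cannot go below a two-sided p of 0.125. Intervals are 95% exact Poisson limits for levels and exact binomial limits for shares, and cover counting error only.

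Neutrophils are short-lived phagocytes made in the bone marrow and recruited in large numbers to the colon during colitis. Their granule proteins are transcribed in sequence as they mature, primary granule proteins such as myeloperoxidase first, secondary granule proteins such as lactoferrin (Ltf), cathelicidin (Camp) and neutrophilic granule protein (Ngp) later, and gelatinase last. Neutrophils in tissue transcribe S100a8 and S100a9, the subunits of calprotectin, the receptor for granulocyte colony-stimulating factor Csf3r, the chemokine receptor Cxcr2 and many cytokine genes.

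The 4 samples gave 652, 338, 1457 and 546 low-granule neutrophils, in the order of samples 1 to 4. Their share of the cells passing the filters was 5.93% (5.50 to 6.39) in sample 1, 2.56% (2.29 to 2.84) in sample 2, 13.1% (12.4 to 13.7) in sample 3 and 6.78% (6.24 to 7.35) in sample 4. Sample 3 was highest and sample 2 lowest, with intervals apart from all others, and the intervals of samples 1 and 4 overlapped. A CD45 selection and the digestion of tissue set such shares too, and their part was not tested.

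The depth of these cells was low. The median UMI count of a low-granule neutrophil was 4739.5, 2755.5, 3293 and 3992 in samples 1 to 4, against 7464, 6170, 6469 and 6091 over all cells passing the filters. The limit of 5 granule UMIs is a raw count, so a shallow cell meets it more easily, and granule-rich neutrophils (the same rule with at least 5 UMIs of Ngp, Ltf and Camp) had medians of 7547, 4554, 5245 and 6574 UMIs. The libraries held between 72509408 and 135516016 UMIs. No barcode of a low-granule neutrophil was found among those of another sample, and at most 47 cell barcodes were shared by any 2 samples. The cells with the highest doublet scores were marked in each sample, and 19, 8, 94 and 25 of these neutrophils, between 2.37% and 6.45%, were among them. The number marked was set beforehand at 0.8% of cells per 1000, which made 6.45% to 10.6% of all cells. These shares are therefore not measured doublet rates.

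The values near each limit of the rule show how sharp it was. Over the 4 samples, 1748 cells (58.4%) held no UMI of Ngp, Ltf or Camp and 181 held 4. The cells with 4 such UMIs and the 147 with 5, just outside, had Retnlg levels of 14003 and 13032 CPM (UMIs of the gene per 1000000 UMIs summed over the cells). The S100 limit behaved differently. The 119 cells with S100a8 and S100a9 at 1 to 1.5% of UMIs had 904 CPM of Retnlg, and the 169 cells at 0.5 to 1% had 263 CPM, both far under the cells near the granule limit. At the Csf3r limit the 658 cells with 1 UMI had 8356 CPM of Retnlg, 132 of Cxcr2, 199 of Vcan and 2683 of Il1b. The 576 with none had 6593, 88.2, 289 and 2648 CPM. Over all samples Il1b was thus close on both sides, while cells with none had less Retnlg and Cxcr2 and more Vcan. By sample this varied. In sample 2 Retnlg was higher with none, at 15926.5 against 15323.5 CPM, and in sample 1 Il1b was lower, at 1702 against 2511 CPM.

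Markers outside the rule bore out the neutrophil label for most of these cells. Retnlg (chr16:48872621-48874496, plus strand, build GRCm38 as are all positions here), which encodes a resistin-like secreted protein of neutrophils, stood at 11422, 12199, 8074 and 9949 CPM in samples 1 to 4. In monocytes (cells with at least 2 UMIs of Ly6c2 and 1 of Ccr2 outside both neutrophil sets) it stood at 315, 43.5, 837 and 871 CPM, so the sets did not overlap. Cxcr2, the receptor for the neutrophil-attracting CXC chemokines, stood at 233, 169, 168 and 140 CPM against 5.05 to 15.8 CPM in monocytes. Il1r2, the decoy receptor that binds IL-1 without signalling, was at 783, 938, 1001 and 928 CPM, and its monocyte levels of 271 to 546 CPM were lower in every sample but not near 0. Ly6g, the surface antigen used to identify mouse neutrophils, was at 345, 194, 110 and 138 CPM against at most 11.8 CPM in monocytes.

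**Figure D1:**
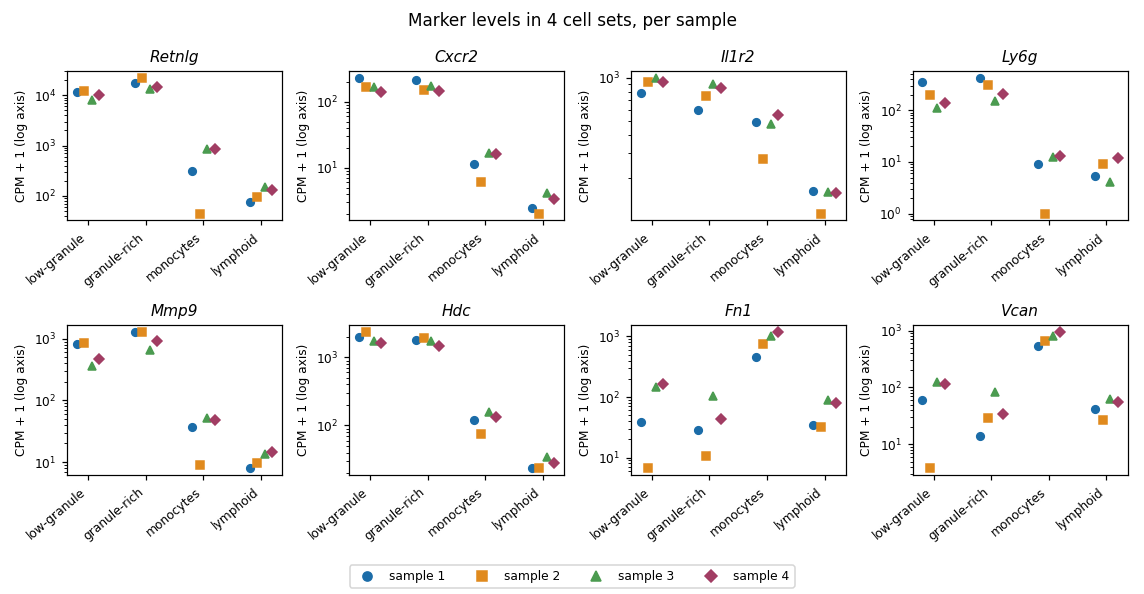
Levels (CPM + 1, log axis) of 6 neutrophil and 2 monocyte genes in low-granule neutrophils, granule-rich neutrophils, monocytes and lymphoid cells, 1 point for each sample. Retnlg, Cxcr2, Ly6g, Mmp9 and Hdc lie higher in both neutrophil sets than in monocytes in every sample, and Fn1 and Vcan lie lower.

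To compare how many cells carry a gene, each cell was thinned at random to 500 UMIs, and no low-granule neutrophil was too shallow for it. Retnlg was then detected in 78.7%, 75.1%, 82.4% and 82.1% of them. Lymphoid cells (cells with Cd3e or Cd79a and no Csf3r), where a neutrophil transcript can come from free RNA, gave 2.93%, 2.99%, 4.60% and 3.86%. Cxcr2 was detected in 11.3%, 10.4%, 9.13% and 8.79% of the neutrophils against at most 0.348% of lymphoid cells. Without thinning, 1342 of the 2993 cells (44.8%) had a Cxcr2 UMI, 2672 (89.3%) an Il1r2 UMI, and 223 (7.45%) no Retnlg UMI.

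Genes of the early stages were nearly absent. Mpo, the myeloperoxidase of primary granules, reached at most 1.94 CPM, Elane, neutrophil elastase, 0.586 CPM, and Cebpe, the transcription factor of secondary granule genes, 2.34 CPM. Granule-rich neutrophils had at most 1.63 CPM of Mpo, and 3.87 to 5.62 CPM of Cebpe, higher than low-granule neutrophils in 4 of 4 samples. Mki67 and Top2a, which mark dividing cells, were at 4.40 to 8.82 and 4.27 to 10.4 CPM. Lymphoid cells had 31.1 to 114 and 57.0 to 155 CPM of the same genes. Eosinophil genes were also at the floor, with Epx at 0 in every sample and Siglecf at 1.16 to 7.60 CPM.

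Genes of other myeloid cells were present, and in samples 1, 3 and 4 the summed monocyte markers were highest in the cells with the least S100a8 and S100a9. The 9 monocyte markers summed to 710.4, 268, 1972 and 2701 CPM in samples 1 to 4. With Ly6c2 and Chil3 left out of the count, at least 3 UMIs of these markers were held by 362 cells (12.1%). By sample that was 7.98%, 1.18%, 15.4% and 14.8%. Over all samples the sum was 5547 CPM in the 221 cells with 1 to 2% S100a8 and S100a9, 3142 CPM in the 553 with 2 to 5%, 1179.6 CPM in the 994 with 5 to 10% and 366 CPM in the 1225 with at least 10%. Sample 2 had no such gradient, with 317, 218, 269 and 278 CPM in the same order. Much of the sum over all samples was Chil3, at 3182 CPM in the cells with 1 to 2% and 111 CPM with at least 10%. Chil3 was also counted among the secondary granule genes, so its level alone does not mark monocytes. Between the same ends F13a1 went from 666 to 14.5 CPM and Vcan from 403 to 8.54 CPM. Cd74, the invariant chain of MHC class II, went from 1570 to 160 CPM between the same ends. In sample 1 Cd74 was highest at 2 to 5%, at 3644 CPM, and in sample 2 it fell too, from 1053 to 355 CPM. Over all samples Retnlg went the other way, from 1082 to 15767 CPM. Cxcr2, Ly6g and Mmp9 were higher at the upper end too, going from 54.3, 18.1 and 148 CPM to 234, 312 and 801 CPM. Il1r2 did not follow them throughout, at 613, 833, 1023 and 972 CPM, and in sample 1 it was highest at 2 to 5%. Whether such cells were mixtures of cells or held free RNA was not tested.

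Against granule-rich neutrophils few genes were far apart. A gene was called when it differed at least 2-fold in the same direction in all 4 samples, with a mean of at least 50 CPM over the 8 sums and with the genes of the rule left out. Of 2664 genes tested, 2 were higher (0.0751%) and 7 were lower (0.263%). The median log2 ratio of all genes tested was 0.16, 0.07, 0.08 and 0.10 in samples 1 to 4. Both sets were cut from the same cells by granule UMIs, so these ratios are a description, and lower granule genes follow from the rule.

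Ccrl2 (chr9:111054486-111057519, minus strand), an atypical receptor that binds chemerin, was at 273, 463, 145 and 145 CPM in low-granule neutrophils and at 82.6, 165, 64.8 and 57.8 CPM in granule-rich ones, a ratio of 2.22 to 3.28. Gm5150, a predicted gene, was at 96.7, 84.5, 94.95 and 86.9 CPM against 39.4, 23.9, 45.0 and 31.0 CPM. These were the only genes called higher, and neither was called when no other lineage was excluded. Ccrl2 was also lost at an S100 limit of 5%, and Gm5150 with granule UMIs under 2. Cd177, a surface protein of the secondary granules, was at 291, 174, 158 and 262 CPM against 834, 645, 522 and 732 CPM. The other genes called lower were Ceacam10, Adpgk, Stfa3, Aldh2, Olfm4 and Ifitm6. Olfm4, a granule glycoprotein, was at 19.9, 34.2, 61.9 and 57.0 CPM against 66.9, 85.9, 130 and 161 CPM. Stfa3 has near-identical neighbours in the stefin A cluster, so its reads may have been split among them.

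**Figure D2:**
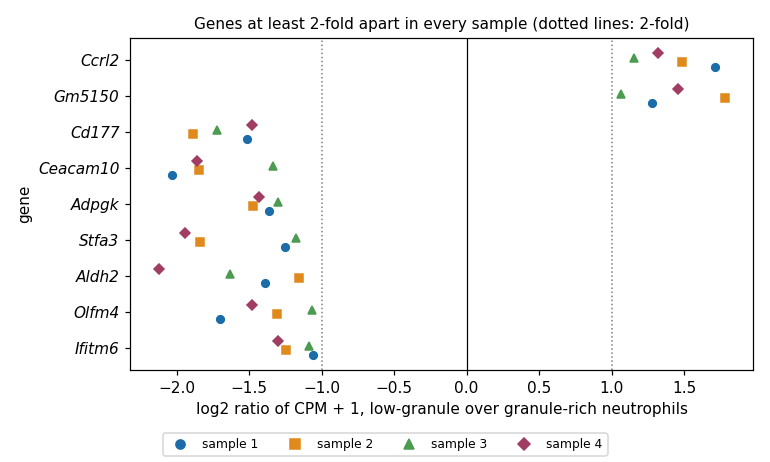
log2 ratio of CPM + 1 of low-granule over granule-rich neutrophils for the 9 genes at least 2-fold apart in each of 4 samples (points). Ccrl2 and Gm5150 lie right of the upper dotted line and the other 7 genes left of the lower one.

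Other granule genes were lower without reaching 2-fold in all samples. Lcn2, which encodes the iron-binding lipocalin 2, was at 3324, 3021, 1787 and 2602 CPM against 7059, 6192, 3388 and 5061 CPM. Mmp9, the gelatinase of tertiary granules, was at 835, 838, 365 and 464 CPM against 1284, 1263, 652 and 911 CPM. Both were lower in 4 of 4 samples. Of the 7 secondary granule genes tested, 1 was called lower, and their median log2 ratio was -0.54 against 0.10 over all genes tested.

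Cytokine genes lay on the other side. Il1b (chr2:129364570-129371139, minus strand), which encodes the precursor of interleukin-1β, was at 2905, 3152, 3036 and 2741 CPM against 1344, 1365, 1899 and 1483 CPM. It was higher in every sample but under 2-fold in samples 3 and 4. Nlrp3, the sensor of the inflammasome that leads to cleavage of that precursor, was at 780, 1306, 885 and 863 CPM against 373, 719, 575 and 554 CPM. Ptgs2, the inducible enzyme of prostaglandin synthesis, was at 246, 381, 358 and 370 CPM against 71.0, 196, 248 and 116 CPM. None of the 12 cytokine and chemokine genes tested was called, and their median log2 ratio was 0.51. Of the 10 NF-kB feedback genes tested none was called either, with a median of 0.37. The monocyte markers had a median of 0.54 over the 6 tested, but their sum was not higher throughout, at 710.4, 268, 1972 and 2701 CPM against 759, 501, 1949 and 1802 CPM, and Ly6c2 was lower in 4 of 4 samples. Their part in the cytokine values was not tested.

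Within the low-granule neutrophils the same genes varied with the S100 share. Because monocyte genes varied with it too, the levels were also taken in the 1148 cells (38.4%) with no UMI of Ccr2, F13a1, Vcan, Fn1, Ms4a4c, Ms4a6c, Csf1r or Cd74, a choice made after the data were seen. A cell with few UMIs meets this condition more easily. In those cells Retnlg was at 869.5, 1469.8, 2469.9 and 3788 CPM in samples 1 to 4 where the S100 share was 1 to 5%, and at 16607, 21233, 14771 and 18352 CPM where it was at least 10%. Ccrl2 went from 1461.5, 1438, 359 and 427 CPM to 91.1, 155, 86.2 and 103 CPM, lower in 4 of 4 samples. Nlrp3 went from 2830.5, 1885, 1407 and 1499 CPM to 533, 947, 776 and 815 CPM, again lower in 4 of 4. Il1b went from 4754.5, 4633, 3994 and 2998.5 CPM to 2402, 2721, 2853 and 2395 CPM. The lowest group held 23, 33, 109 and 46 cells. Among the 1148 cells, those with an S100 share of at least 10% thus had more Retnlg than those at 1 to 5%, in each sample. They also had less Ccrl2, Nlrp3 and Il1b in each sample. Over all low-granule neutrophils Nlrp3 and Il1b did not fall in every sample. In sample 3 Il1b was at 2556, 2886, 3407 and 2864 CPM at 1 to 2%, 2 to 5%, 5 to 10% and at least 10%. Nlrp3 was there at 764, 885, 1007 and 775 CPM. Other genes still fell in the 1148 cells. Chil3, counted here among both the monocyte markers and the secondary granule genes, was not among those excluded. It went from 74.0, 32.0, 246 and 548 CPM to 42.7, 7.07, 123 and 227 CPM. Satb1, a chromatin organiser, went from 277.5, 351, 250 and 540.1 CPM to 93.1, 177, 60.4 and 47.1 CPM. Il1r2 went from 1850 to 760 CPM in sample 1, from 1166 to 1067 in sample 2, from 1207 to 1157 in sample 3 and from 1056 to 1158 in sample 4.

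**Figure D3:**
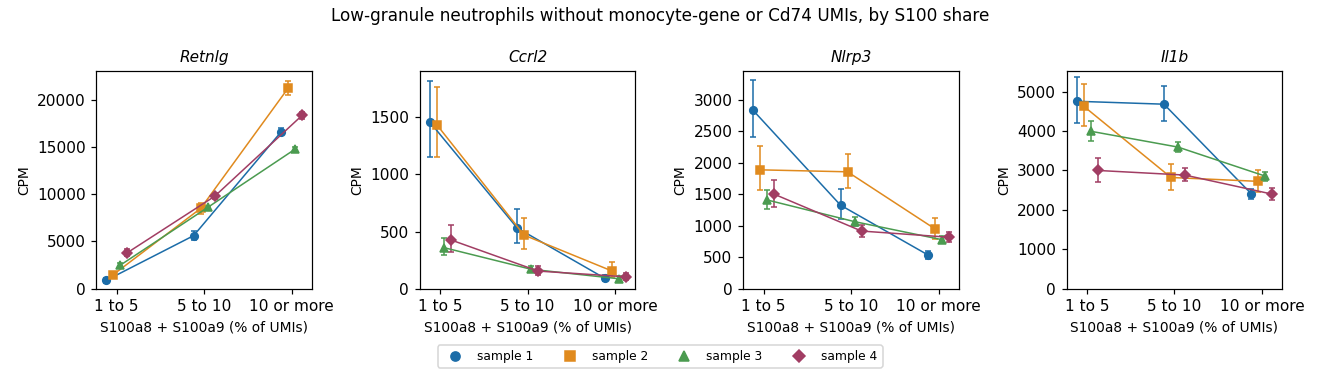
Levels (CPM) of Retnlg, Ccrl2, Nlrp3 and Il1b in low-granule neutrophils with no UMI of 7 monocyte genes or Cd74, in 3 ranges of the S100a8 and S100a9 share of UMIs, a line for each sample; bars are 95% Poisson intervals. Retnlg is highest and Ccrl2 and Nlrp3 are lowest where the share is 10% or more, in all 4 samples.

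Against monocytes many genes were apart. Of 3082 genes tested by the same rule, with Ly6c2 and Ccr2 also left out, 229 were higher (7.43%) and 521 were lower (16.9%) in low-granule neutrophils. The median log2 ratio of all genes tested was -0.31, -0.30, -0.15 and -0.16, and the folds below are not corrected for it.

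Ranked by the smallest of their 4 folds, the 10 leading genes upward were Cstdc4, Stfa2l1, Slc40a1, St3gal6, Chil1, Hdc, Rdh12, Myo1d, Cstdc5 and Asprv1. Hdc, the enzyme that makes histamine, was at 1988, 2360, 1744 and 1653 CPM against 120, 74.8, 157 and 132 CPM, at least 11.1-fold higher in each sample. Slc40a1, the iron exporter ferroportin, was at 154, 94.96, 192 and 117 CPM against 5.33, 1.01, 15.6 and 6.65 CPM. Cstdc4, Stfa2l1 and Cstdc5 belong to the stefin A cluster of cysteine protease inhibitors, whose near-identical copies make their separate levels uncertain. Stfa2l1 was at 706, 753, 1379 and 1695 CPM against 17.2, 0, 93.0 and 126 CPM.

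By the same ranking the 10 leading genes downward were Fn1, Vcan, Msr1, Ms4a4c, Lyz2, Adap2, Il1r1, Ccl9, Plcb1 and Sash1. Lyz2, a lysozyme counted here also among the secondary granule genes, was at 397, 367, 328 and 361 CPM against 3398, 4987, 2082 and 2128 CPM. Fn1, fibronectin, was at 37.5, 5.70, 143 and 166 CPM against 463, 757, 1012 and 1184 CPM. All 7 monocyte markers tested were called lower, and of the 17 neutrophil markers tested 14 were called higher. The monocytes were chosen by Ly6c2 and Ccr2 and the neutrophils by S100a8, S100a9 and Csf3r. These marker counts are therefore a description and follow in part from that choice.

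Of 16 cytokine and chemokine genes tested, Il1f9 and Ccl3 were called higher and Tgfb1 lower, against 7.43% and 16.9% of all genes tested. Il1f9, which encodes the IL-36 family cytokine IL-36γ, was at 656, 781, 748 and 784 CPM against 38.6, 12.1, 78.9 and 115 CPM. Ccl3, a chemokine for monocytes and lymphocytes, was at 703, 788, 709.8 and 748 CPM against 125, 173, 252 and 322 CPM. Il1b was in monocytes at 3797, 3123, 2523 and 3280 CPM, a range that overlapped that of the neutrophils. Cxcl2, a ligand of Cxcr2, was at 7322, 12844, 7922 and 7836 CPM against 3903, 5704, 5383 and 6676 CPM, higher in 4 of 4 samples but not 2-fold in all.

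Among IL-1 receptors, Il1rap, the shared signalling chain, was at 904, 1144, 1135 and 968 CPM against 74.7, 77.8, 175 and 145 CPM. Il1r1, the signalling receptor itself, was at 7.33, 5.70, 36.7 and 26.4 CPM against 68.3, 85.9, 206 and 173 CPM. Il1rap was called higher and Il1r1 lower. The decoy receptor and the shared chain were thus higher than in monocytes in every sample, and the signalling receptor lower.

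In the phagocyte oxidase, Ncf1 and Rac2, cytosolic parts of the complex, were called higher and Cybb, its membrane-bound catalytic chain, was called lower. Cybb was at 167, 117, 202 and 203 CPM against 863, 873, 779 and 877 CPM. Pycard, the inflammasome adaptor, was called lower at 47.8, 24.7, 40.3 and 50.04 CPM against 261, 210.3, 137 and 131 CPM. Trem1, a receptor that amplifies inflammatory signals, was called higher. Arg2, the mitochondrial arginase, was called higher at 1169, 1386, 1435 and 1308 CPM against 393, 360.0, 601 and 559 CPM. Slc2a3, a glucose transporter, was called higher at 95.5, 248, 146 and 137 CPM against 5.77, 10.1, 12.5 and 15.4 CPM. The other 11 glycolysis and hypoxia genes tested were not called. Tested genes numbered 6 for the oxidase, 10 for pattern recognition and inflammasome, and 6 for arginine and polyamine. Slc7a2, of the arginine and polyamine list, was called lower. Of all genes tested, 7.43% were called higher than in monocytes and 16.9% lower.

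**Figure D4:**
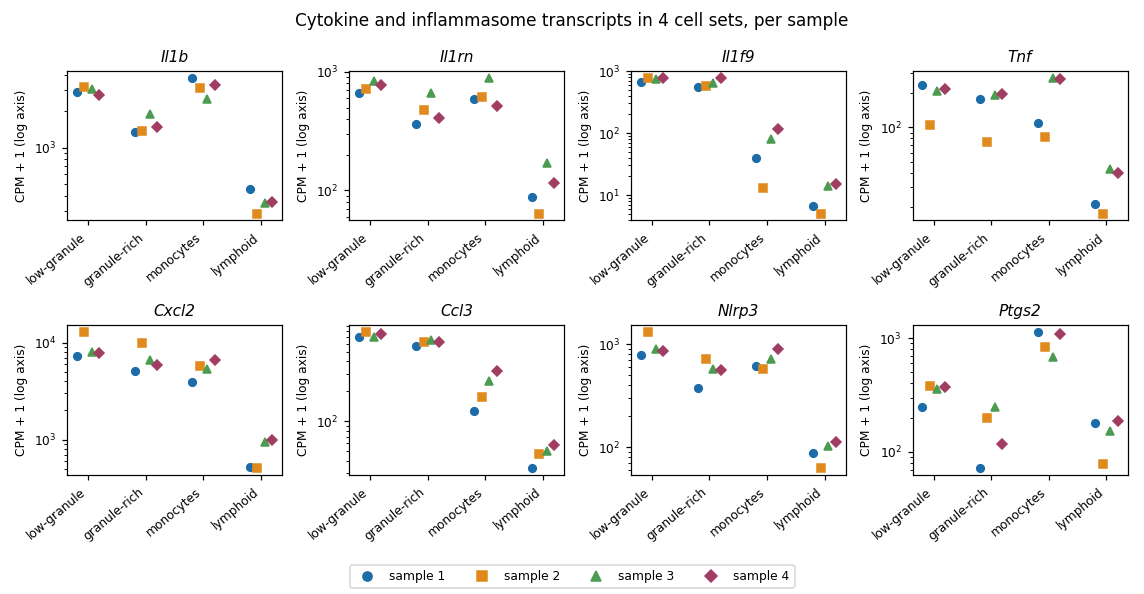
Levels (CPM + 1, log axis) of 8 cytokine, chemokine, inflammasome and prostaglandin genes in the 4 cell sets, 1 point for each sample. Il1f9 and Ccl3 lie higher in both neutrophil sets than in monocytes, Il1b lies higher in low-granule than in granule-rich neutrophils and overlaps monocytes, and Ptgs2 lies highest in monocytes.

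Ahr, the gene targeted in the study, stood at 32.8, 33.2, 53.3 and 31.8 CPM in samples 1 to 4, and was called lower than in monocytes, at 156, 225, 110.2 and 112 CPM. Its induced targets Cyp1a1 and Ahrr were at 0 and at most 1.47 CPM. A level of Ahr does not tell the genotype of a sample, since a transcript can persist where an exon is deleted, and none was inferred.

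Interferon-inducible genes, summed, were highest in sample 1. The 14 genes of the list summed to 11779, 7769, 4959 and 5023 CPM in low-granule neutrophils of samples 1 to 4, and to 3917, 1531, 2610.3 and 1975 CPM in all other cells. Ifitm1, Ifitm2 and Ifitm3 made the largest parts of the neutrophil sum in sample 1, at 5079, 2644 and 1749 CPM. They were there 1.43, 1.14 and 1.79 times the next sample. Within each sample the neutrophil sum rose with the S100 share. That share was at least 10% in 62.0%, 42.0%, 34.0% and 33.5% of the neutrophils, whose sums were 13836, 9095, 6562 and 7046 CPM. Of the list, Rsad2 was highest in sample 3 and Slfn4 was close in samples 1 and 4. Gbp2, a guanylate-binding protein of the response to interferon-γ, was at 999, 182, 179 and 112 CPM, and was detected in 29.8%, 8.58%, 6.79% and 3.85% of the cells thinned to 500 UMIs. Without thinning the shares were 74.8%, 23.1%, 34.7% and 28.9%, in cells that were deepest in sample 1. Isg15, a ubiquitin-like protein, was at 333, 140, 84.2 and 59.4 CPM. Of the 9 genes of the list that reached 50 CPM in a sample, these 2 stood in sample 1 at least 2-fold over every other sample, as did 37 of 3222 genes at that minimum (1.15%). For samples 2, 3 and 4 the share of genes highest by that much was 0.993%, 0.155% and 0.497%. Of the genes of the list under that minimum, Ifit1, Ifit2, Ifit3 and Ifit3b also stood in sample 1 at least 2-fold over every other sample. Their levels there were low, at 48.4, 9.09, 12.3 and 2.93 CPM. Irf7, at 43.1 CPM in sample 1, was 1.62 times the next sample. Outside the list, Cxcl10, a chemokine for activated T cells, was at 573, 32.3, 44.3 and 41.5 CPM, and Cd274, which encodes the inhibitory ligand PD-L1, was at 1279, 668, 561 and 523 CPM. Granule-rich neutrophils and monocytes of sample 1 also had the most Gbp2, at 579 and 878 CPM. Sample 1 is a single library, and its genotype, its mice and its handling cannot be told apart here.

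**Figure D5:**
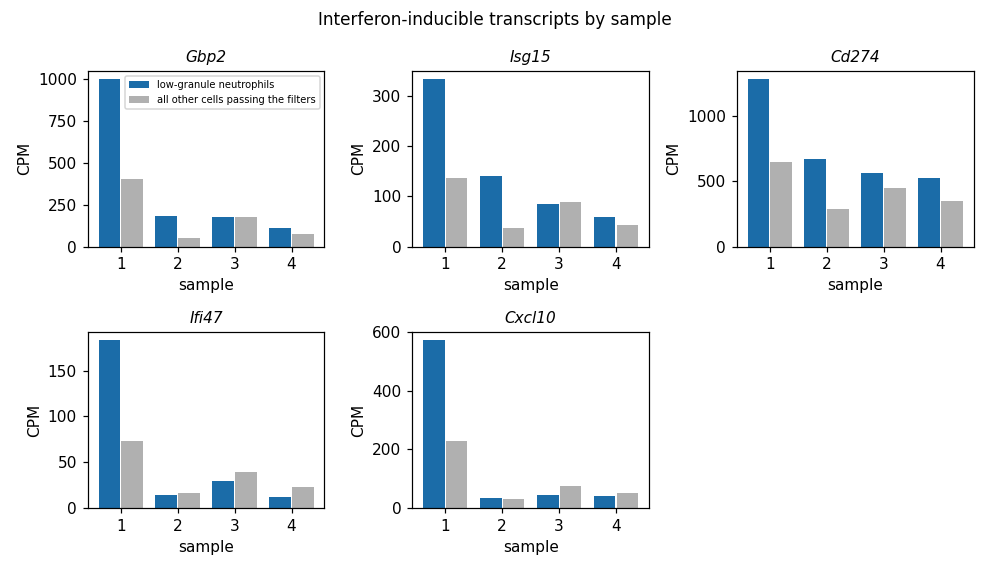
Levels (CPM) of 5 interferon-inducible genes in low-granule neutrophils and in all other cells passing the filters, for samples 1 to 4. Bars for sample 1 are the highest in both sets for each of the 5 genes.

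The promoters of 4 of these genes are shown because their transcripts were highest in the same sample. Gbp2 and Isg15 were those of the list past 2-fold and at 50 CPM or more, and Cxcl10 and Cd274 were added after their values were seen. RefSeq promoters on build GRCm38.p6, from 250 bases before to 50 after the start, were matched for all 4. Capitals mark matches, on either strand, to GAAANNGAA, the core of the interferon-stimulated response element, or to TTCNNNGAA, the core of the gamma-activated sequence. Each sequence runs 5′ to 3′ along the strand of its gene.
Gbp2: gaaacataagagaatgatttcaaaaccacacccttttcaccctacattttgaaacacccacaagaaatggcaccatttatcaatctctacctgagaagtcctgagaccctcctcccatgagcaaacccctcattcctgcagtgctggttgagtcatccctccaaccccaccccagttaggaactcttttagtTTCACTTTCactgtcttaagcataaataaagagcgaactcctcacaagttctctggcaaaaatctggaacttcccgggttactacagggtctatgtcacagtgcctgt
Isg15: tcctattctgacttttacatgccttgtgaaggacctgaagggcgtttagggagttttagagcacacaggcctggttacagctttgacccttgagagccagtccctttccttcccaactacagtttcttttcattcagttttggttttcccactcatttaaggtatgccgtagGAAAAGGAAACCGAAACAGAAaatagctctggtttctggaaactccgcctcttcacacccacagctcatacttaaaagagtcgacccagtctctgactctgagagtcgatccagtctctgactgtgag
Cxcl10: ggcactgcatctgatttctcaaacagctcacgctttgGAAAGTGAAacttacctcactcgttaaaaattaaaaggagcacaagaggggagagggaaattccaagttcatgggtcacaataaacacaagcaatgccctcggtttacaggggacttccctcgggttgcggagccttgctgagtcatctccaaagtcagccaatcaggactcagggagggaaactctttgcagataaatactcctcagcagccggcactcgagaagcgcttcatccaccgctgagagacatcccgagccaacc
Cd274: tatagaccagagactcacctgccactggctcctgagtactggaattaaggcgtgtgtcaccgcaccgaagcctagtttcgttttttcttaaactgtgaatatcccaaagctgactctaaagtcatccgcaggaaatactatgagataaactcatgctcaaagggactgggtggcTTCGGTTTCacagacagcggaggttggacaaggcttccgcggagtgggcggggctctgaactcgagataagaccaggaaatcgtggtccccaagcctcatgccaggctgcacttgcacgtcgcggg
They lie at chr3:142620413-142620712 (plus strand), chr4:156200769-156201068 (minus), chr5:92348840-92349139 (minus) and chr19:29367188-29367487 (plus). Each held a match to the first motif, 3 overlapping or adjoining ones in Isg15 and 1 in each of the others, and none held the second. Of 32851 promoters of this length 8.56% held the first motif and 8.30% the second. The 4 genes were picked as interferon-inducible, so these shares are no test of their matches. A match is a run of letters and was not tested as a binding site.

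The widest ranges between samples were mostly of other cells' genes. The 10 widest, by log2(CPM + 1), were those of Car1, Slc7a2, Guca2a, Apod, Chil3, Saa3, F13a1, Scn7a, Phgr1 and 1810065E05Rik, against a median range of 0.62 over 3222 genes. Several came from single cells. Of 458 Car1 UMIs in sample 4, 436 lay in 1 cell, and all 70 Apod UMIs of sample 2 lay in 1 cell. Saa3, an acute-phase serum amyloid, was spread wider, at 273, 55.1, 1848 and 3269 CPM and in 20.1%, 7.40%, 53.2% and 46.7% of the cells. Chil3, a chitinase-like protein that monocytes also express, was at 186, 24.7, 1149 and 1720 CPM. In all other cells Saa3 was at 771, 209, 3608 and 2027 CPM in samples 1 to 4, again lowest in sample 2 and then in sample 1.

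Between cells of 1 sample, the gene whose thinned counts varied most over their mean was Retnlg, with a ratio of variance to mean of 6.39, 6.85, 5.07 and 5.29. It was followed by Gm42418, which overlaps ribosomal RNA sequence, and by Fth1, Wfdc17, Cxcl2, mt-Atp6, Cstdc4, mt-Co3, mt-Co2 and Ccl4. A ratio of 1 is what counting alone gives. Cxcl2 had 4.81, 4.10, 3.03 and 3.80, and Ccl4, a chemokine close to Ccl3, had 3.98, 4.54, 2.50 and 8.57. The high value of Ccl4 in sample 4 came with 833 of its 2700 UMIs in 1 cell.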

How the data were processed

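For each of the 4 samples the authors deposited a sparse matrix of raw UMI counts per gene and cell barcode, with gene and barcode lists. Per the labels, Cell Ranger 5.0.0, STAR and Seurat were used with build mm10, and the file headers name Cell Ranger 7.0.1. Which version made these counts is not settled by the sources used here. The paper gives the mice as younger than the labels do.

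Counts were read with Python 3.11.15 and scipy 1.17.1, and scanpy 1.11.5 ran Scrublet for doublets, marking 0.8% of cells per 1000. Members and gene lists were chosen with earlier results of these data known. UMIs were summed per sample and cell set and scaled to CPM, with a pseudocount of 1 CPM in ratios. Genes named were those of the lists, the 10 largest folds each way, the 10 widest ranges between samples and the 10 largest variance-to-mean ratios, and others were named after their values were seen. Gene positions are those of GENCODE M21, on the build that mm10 names. The call rule was tested on simulated data. Samples have no labelled group, so no test between groups was run. Some genes are not reported here. Alternatives are listed in the closing section.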

Additional observations from a re-analysis of the deposited data

How the results depend on the processing

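The number of low-granule neutrophils was 2993, with 5120 when no other lineage was excluded and 1197 when cells with Ly6c2, Ccr2, Cd74, Lyz1 or Ighm were also excluded. The median share over samples, 6.35%, was 5.84% with an S100 limit of 2%, 4.74% with 5%, 5.07% with 2 Csf3r UMIs, 7.67% with none required, 4.68% with under 2 granule UMIs, 10.9% with no lineage excluded and 2.07% with the longer exclusion. Against granule-rich neutrophils the 9 genes called of 2664 tested became 23 of 2647 (15 higher, 8 lower) with granule UMIs under 0.1%. With no lineage excluded 2 of 3269 were called, and by the mean over cells 14 of 2588. With a minimum of 10 CPM 15 of 5941 were called, and with no minimum 16 of 20645. Cd177 was called lower in every setting. Ccrl2 was not called at an S100 limit of 5%, with no lineage excluded or with the longer exclusion, and Gm5150 not with 2 Csf3r UMIs, under 2 granule UMIs, no lineage excluded, a pseudocount of 10 CPM or centred ratios. Against monocytes the 750 genes called of 3082 tested became 396 of 3332 with no lineage excluded. They became 1475 of 6718 at 10 CPM and 1834 of 20731 with no minimum. Centred on the median ratio, the calls against monocytes were 318 higher and 405 lower in place of 229 and 521, of 3082 tested. Without S100a8 and S100a9 in the total they were 298 and 457 of 3195 tested. Thinned to 1000 UMIs and not thinned, the median share of cells was 15.5% and 40.8% for Cxcr2 (9.65% at 500), 58.3% and 88.4% for Il1r2 (36.1%), and 86.4% and 92.4% for Retnlg (80.2%). Without sample 2, 11 of 2746 genes tested were called against granule-rich neutrophils and 763 of 3112 against monocytes. The S100 limit of 5%, the centring, the total without S100 genes and the run without sample 2 were chosen after seeing the data. No pairing between groups of samples was possible because the labels give no such groups. Cell sets were compared within each sample, with no p-value. Shares and levels in sample 2 rest on the fewest cells.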

Other observations

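Of the survival genes, a pair differed from monocytes by the rule used for calls. Bcl2l1, an anti-apoptotic member of the BCL-2 family, was at 232, 338, 329 and 303 CPM in low-granule neutrophils of samples 1 to 4 and at 42.0, 18.2, 65.4 and 61.9 CPM in monocytes. Fas, the death receptor, was at 368, 239, 307 and 273 CPM against 78.3, 57.6, 104 and 87.0 CPM. Of 11 survival genes tested these 2 were called higher and none lower, against 7.43% and 16.9% of all genes tested, and the other 9 were not called. The median log2 ratio of the list was 0.02 against -0.21 over all genes tested. Alox5, the enzyme that starts leukotriene synthesis, was at 80.3, 87.4, 69.5 and 73.7 CPM against 4.61, 3.03, 8.90 and 10.2 CPM, but its mean over the 8 sums was under the minimum for a call. Csf1, the macrophage growth factor, was at 67.7, 113, 77.6 and 74.5 CPM against at most 13.8 CPM.

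Plasma cell transcripts followed the sample. Igkc, the kappa light chain, was at 154, 1076, 267 and 62.8 CPM in low-granule neutrophils and at 4751, 17691, 4378 and 2919 CPM in all other cells, highest in sample 2 in both. In sample 3, 562 of its 1666 UMIs lay in 1 cell.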
